A study of Mus musculus with 10 samples.

Results

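Fibrillar collagen is modified, folded and joined by a chain of enzymes. In the endoplasmic reticulum prolyl and lysyl hydroxylases act on the nascent chains, and chaperones hold the triple helix together until export. Outside the cell, lysyl oxidases turn lysine and hydroxylysine side chains into aldehydes that condense into cross-links, so the abundance of these enzymes relative to collagen bears on how stiff and how soluble the collagen of skin is. The 10 genes described here were chosen by name for these functions: the lysyl oxidases Lox, Loxl1, Loxl2 and Loxl3, the lysyl hydroxylases Plod1, Plod2 and Plod3, and the folding factors Fkbp10, Serpinh1 and P4ha1. They are 10 of the 47729 genes in the count table, and all 10 passed the filter on low counts that left 17668 genes.

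Messenger RNA was sequenced from whole skin of male C57BL/6 mice, 5 libraries labelled 24 months and 5 labelled 9 months. The series' design text instead puts the younger mice at 2 months, and no measurement here settles which is right. Each title carries its own number, read as 1 animal per library, and replicates are numbered in accession order. The labels do not say in words that the animals are separate, so the p-values may measure only the spread between these libraries. The sources used here give neither body site nor hair cycle stage. Total counts ranged between 29324259 and 55976007 per library.

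Markers of fibroblasts, epidermis, fat, muscle, vessels, B cells and macrophages were present in every group, and none of the listed markers was at 0 in all libraries. Libraries stood apart within both ages. In 24 months replicates 1 and 2, 114 and 111 CPM were measured for Col1a1, the main chain of type I collagen, against 974 to 3216 CPM in the other 8 libraries (CPM is the count relative to the library's scaled total). In the same 2 libraries the summed CPM of 9 fibroblast markers was 1639 and 1119, against 2273 to 3759 in the other 8, and 8 of the 9 markers were lower in both than in any other library. White adipocyte markers summed to 14231 CPM in 24 months replicate 1, against 1722 to 4067 CPM in the 9 others. The 9 months replicates 4 and 5 had growing-hair markers, summed over 11 of 12 listed genes, of 9117 and 28848 CPM, against 34.8 to 330.4 CPM in the other 8. In whole skin, fewer cells of a type and less RNA per cell cannot be told apart. The part of these differences in the results below was not tested. Values with some of the named libraries left out are given for the 10 genes and for the pathway lists, and not for the nearest genes.

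Fkbp10, Serpinh1 and Plod2 had the smallest p-values, with log2 fold changes of -0.69, -0.89 and -0.98 for 24 over 9 months, and P4ha1, Plod3 and Plod1 were within 0.14 of no difference on the log2 scale. No gene passed the threshold. The quasi-likelihood test of edgeR, after Benjamini-Hochberg adjustment, called 0 of 17668 genes (0% called; 2308 at an unadjusted p under 0.05), and the smallest adjusted p among the 10 genes was 0.198. At an unadjusted p under 0.05, 3 of the 10 were lower and 0 were higher, against 6.45% of all genes tested lower and 6.62% higher. With 24 months replicates 1 and 2 left out, 1 was lower, Serpinh1, and 1 higher, P4ha1, against 3.62% and 4.96% of all genes tested. The median log2 fold change of the 10 was -0.35, against -0.011 over all genes tested, and 8 of the 10 were negative. Without 24 months replicates 1 and 2 the median of the 10 was -0.012, so the group's shift rests on those libraries. DESeq2 called 907 of the 20560 genes to which it gave an adjusted p. Of the 20560, 478 (2.32%) were lower at 24 months and 429 higher. It called 0 of these 10. Its smallest adjusted p among them were 0.0655 for Fkbp10 and 0.0918 for Plod2. Limma-voom with library quality weights called 3 genes in all.

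**Figure D1:**
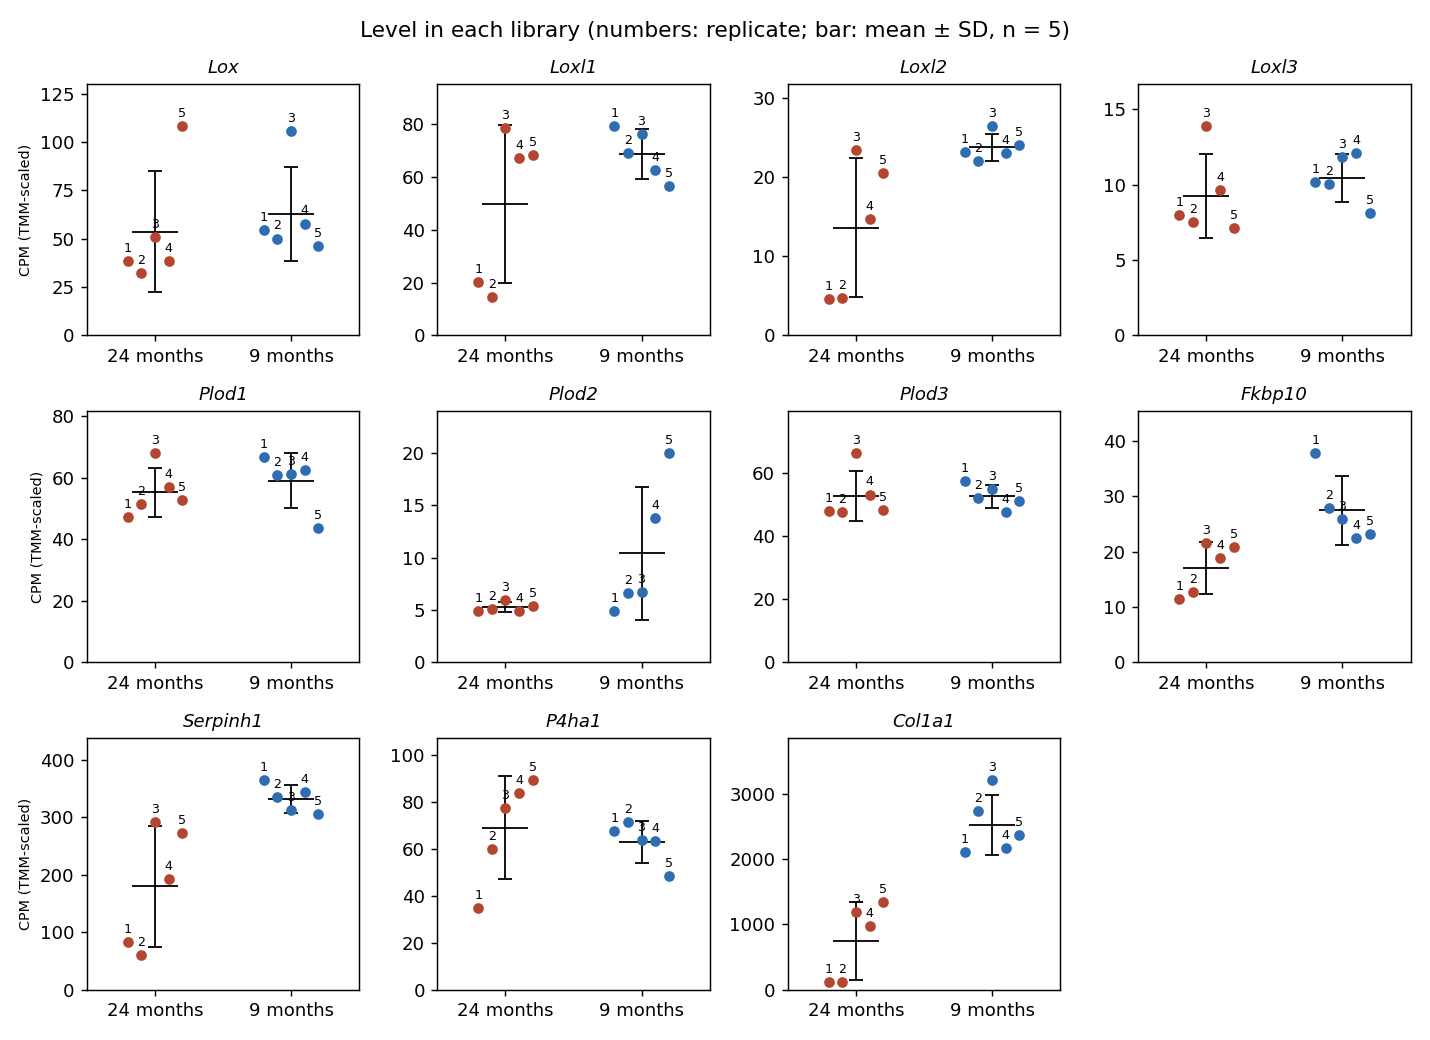
Level of each of the 10 genes and of Col1a1 in every library, in CPM on a linear axis from 0, with the 24 months libraries on the left and the 9 months libraries on the right. Small numbers are replicates and bars are mean ± SD of 5 libraries. Serpinh1, Loxl1 and Loxl2 are low in 24 months replicates 1 and 2, Plod2 is high in 9 months replicates 4 and 5, and Fkbp10 and Serpinh1 do not overlap between the ages.

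Serpinh1 encodes HSP47, a chaperone of the endoplasmic reticulum that binds the folded procollagen helix (ENSMUSG00000070436, chromosome 7, 99345376 to 99353239, minus strand, GRCm38). It stood at 82.8, 60.5, 291, 192 and 273 CPM in 24 months replicates 1 to 5, against 365, 335, 313, 344 and 306 CPM in 9 months replicates 1 to 5. Every 24 months library lay below every 9 months library, and replicates 1 and 2 at 24 months were far below the next lowest value, 192 CPM. The mean was 180 ± 106 CPM at 24 months and 332 ± 24.1 CPM at 9 months (SD, n = 5 each), a log2 fold change of -0.89 ± 0.38 (SE; edgeR adjusted p = 0.338). Without 24 months replicates 1 and 2 the log2 fold change was -0.40 (edgeR adjusted p = 0.574). Its spread at 9 months was small, with an SD of 0.10 on the log2 scale against a median of 0.36 over all genes tested, and at 24 months it was 1.03 against 0.28.

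Fkbp10 encodes FKBP65, a prolyl isomerase of the endoplasmic reticulum that binds collagen chains and works with the lysyl hydroxylase made from Plod2 (ENSMUSG00000001555, chromosome 11, 100415697 to 100424824, plus strand). Its levels were 11.4, 12.7, 21.6, 18.8 and 20.8 CPM at 24 months, against 37.8, 27.9, 25.9, 22.4 and 23.3 CPM at 9 months. The ages did not overlap, though the highest older mouse and the lowest younger mouse differed by less than 1 CPM. The mean was 17.0 ± 4.70 CPM at 24 months and 27.5 ± 6.19 CPM at 9 months (SD, n = 5 each), a log2 fold change of -0.69 ± 0.22 (SE; edgeR adjusted p = 0.198). It was -0.85 without 9 months replicates 4 and 5 and -0.43 without 24 months replicates 1 and 2 (edgeR adjusted p = 0.514 and 0.578). Fkbp10 and Serpinh1 were the 2 of the 10 genes whose ages did not overlap, both lower at 24 months, against 1.23% of all genes tested. None of the 10 lay wholly higher, against 1.66%. The exons of Fkbp10 share 193 bases, 6.58% of their length, with Nt5c3b on the other strand. Since the strand setting of the counting is not given, reads there cannot be told apart. Nt5c3b had a log2 fold change of -0.15.

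P4ha1, the catalytic alpha subunit of a collagen prolyl 4-hydroxylase, which makes the hydroxyproline that stabilises the helix (ENSMUSG00000019916, chromosome 10, 59323296 to 59373304, plus strand), did not share this direction. It measured 35.03, 60.2, 77.4, 83.9 and 89.6 CPM at 24 months, against 67.9, 71.6, 63.8, 63.4 and 48.3 CPM at 9 months. Replicates 3, 4 and 5 at 24 months lay above all 9 months libraries, and replicate 1 lay below them all. The log2 fold change was 0.14 ± 0.23 (SE; edgeR adjusted p = 0.854). Without 24 months replicates 1 and 2 it was larger, at 0.41 (edgeR adjusted p = 0.511). It was 0.30 without replicate 1 alone and 0.18 without replicate 2 alone. It fell to 0.026 without 24 months replicate 5 (edgeR adjusted p = 0.982) and to 0.026 without 9 months replicates 4 and 5 (edgeR adjusted p = 0.978). Its size thus depended on which libraries were kept, down to almost no difference, though its sign stayed positive.

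Among the lysyl hydroxylases, Plod2 differed most. It encodes the enzyme that hydroxylates lysines in the collagen telopeptides, the step that directs cross-links to the stable pyridinoline type (ENSMUSG00000032374, chromosome 9, 92542223 to 92608428, plus strand). The older mice were close together at 4.95, 5.11, 5.98, 4.95 and 5.43 CPM, against 4.87, 6.61, 6.71, 13.8 and 20.004 CPM in the younger mice. The 2 high values were 9 months replicates 4 and 5, the libraries with growing-hair markers, and the other 8 libraries lay between 4.87 and 6.71 CPM. The log2 fold change was -0.98 ± 0.35 (SE; edgeR adjusted p = 0.250), and -0.20 without those 2 libraries (edgeR adjusted p = 0.7102). Without 24 months replicates 1 and 2 it was -0.93 (edgeR adjusted p = 0.611). The exons of Plod2 share 346 bases with Gm38391 on the other strand, which had at most 34 counts in a library.

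Plod1 and Plod3 were nearly level. Plod1, which hydroxylates lysines within the collagen helix (ENSMUSG00000019055, chromosome 4, 147909753 to 147936767, minus strand), measured 47.2, 51.6, 68.2, 57.0 and 52.8 CPM at 24 months, against 66.8, 61.1, 61.2, 62.5 and 43.6 CPM at 9 months. Its ages overlapped, and its log2 fold change was -0.092 ± 0.14 (SE; edgeR adjusted p = 0.843). Plod3, which also adds sugars to hydroxylysine (ENSMUSG00000004846, chromosome 5, 136987019 to 136996648, plus strand), measured 48.2, 47.8, 66.5, 53.3 and 48.3 CPM at 24 months, against 57.5, 52.2, 54.9, 47.9 and 51.2 CPM at 9 months. Its log2 fold change was 0.0027 ± 0.12 (SE; edgeR adjusted p = 0.996), with a sign that changed under several other settings. Plod3 was the steadiest of the 10: its SD over the 10 libraries was 0.15 on the log2 scale, and 5.43% of all genes tested had a smaller one. The exons of Plod3 share 11.7% of their length with Znhit1 on the other strand.

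The lysyl oxidases showed different patterns. Loxl1, known for cross-linking elastin with fibulin-5 (ENSMUSG00000032334, chromosome 9, 58287738 to 58313186, minus strand), measured 20.4, 14.5, 78.6, 67.1 and 68.1 CPM at 24 months, against 79.4, 69.1, 76.3, 62.5 and 56.7 CPM at 9 months. Replicates 1 and 2 at 24 months lay far below the other 8 libraries, and the remaining older mice lay within the younger range. The log2 fold change was -0.47 ± 0.40 (SE; edgeR adjusted p = 0.687), and 0.051 without those 2 libraries, so its direction rests on them.

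Loxl2, a lysyl oxidase with scavenger receptor domains that acts on collagen IV among other substrates (ENSMUSG00000034205, chromosome 14, 69609068 to 69695834, plus strand), had the same 2 low libraries. It stood at 4.59, 4.68, 23.5, 14.7 and 20.5 CPM at 24 months, against 23.2, 22.03, 26.5, 23.0 and 24.1 CPM at 9 months. Only 24 months replicate 3 entered the younger range. The log2 fold change was -0.81 ± 0.41 (SE; edgeR adjusted p = 0.447), and -0.28 without replicates 1 and 2 (edgeR adjusted p = 0.733). The exons of Loxl2 share 5.57% of their length with Gm27177 on the other strand, which had 0 counts in every library.

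Lox, the founding member and the main cross-linking enzyme of fibrillar collagen and elastin (ENSMUSG00000024529, chromosome 18), had 1 high library in each age. It stood at 38.2, 32.0, 50.8, 38.5 and 108.4 CPM at 24 months, against 54.5, 50.1, 105.6, 57.8 and 46.3 CPM at 9 months. Apart from replicate 5 at 24 months and replicate 3 at 9 months, no library exceeded 57.8 CPM. The log2 fold change was -0.23 ± 0.34 (SE; edgeR adjusted p = 0.834). It was -0.65 without 24 months replicate 5 (edgeR adjusted p = 0.316) and 0.037 without 9 months replicate 3 (edgeR adjusted p = 0.976), so that single libraries set both its size and its sign.

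Loxl3, required in mice for palate and spine formation (ENSMUSG00000000693, chromosome 6, 83034173 to 83052562, plus strand), measured 7.996, 7.51, 13.9, 9.67 and 7.11 CPM at 24 months, against 10.2, 10.1, 11.8, 12.1 and 8.15 CPM at 9 months. The ages overlapped and the log2 fold change was -0.18 ± 0.21 (SE; edgeR adjusted p = 0.779). It was -0.032 without 24 months replicates 1 and 2 and -0.21 without 9 months replicates 4 and 5 (edgeR adjusted p = 0.983 and 0.750). Its exons share 11.6% of their length with Htra2 on the other strand.

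Per kilobase of exon, Serpinh1 was the most abundant of the 10, at 73.6 ± 43.3 CPM per kilobase at 24 months and 136 ± 9.86 at 9 months (SD, n = 5 each). Loxl1 was next at 9 months, with 15.1 ± 9.07 at 24 months and 20.9 ± 2.87 at 9 months, and P4ha1 had 16.8 ± 5.36 and 15.3 ± 2.15 at 24 and 9 months. Lox had 11.2 ± 6.57 at 24 months and 13.2 ± 5.08 at 9 months on this scale, Plod3 11.7 ± 1.77 and 11.7 ± 0.813, and Fkbp10 5.80 ± 1.601 and 9.35 ± 2.11. From P4ha1 down to Plod1, at 8.18 ± 1.18 and 8.72 ± 1.32, neighbours in the 9 months order overlapped there within 1 SD. Loxl2 was lower, at 2.51 ± 1.62 at 24 months and 4.40 ± 0.314 at 9 months. Loxl3 had 2.01 ± 0.606 at 24 months and 2.27 ± 0.346 at 9 months. Plod2 was lowest, with 0.980 ± 0.0814 at 24 months and 1.93 ± 1.18 at 9 months. Exon lengths were taken from the GENCODE vM21 annotation, so the order also carries that choice of transcripts.

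The second question was the mRNA level of each gene relative to collagen mRNA, taken as counts per 100 counts of Col1a1 in the same library. Col1a1 itself stood at 748 ± 595 CPM at 24 months and 2519 ± 461 CPM at 9 months (SD, n = 5 each), a log2 fold change of -1.75 ± 0.63 (SE; edgeR adjusted p = 0.254). All 10 ratios were higher on average at 24 months. When each library was scaled by its Col1a1 count, edgeR called 8 of the 10 genes higher at 24 months, against 96.9% of all genes tested. At an unadjusted p under 0.05 it was also 8 of 10, against 97% of all genes tested. The median log2 fold change relative to Col1a1 was 2.46 over the 10 genes and 3.29 over all genes tested. The share called is not above the background, so the ratios only rank the 10 by their difference from Col1a1.

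**Figure D2:**
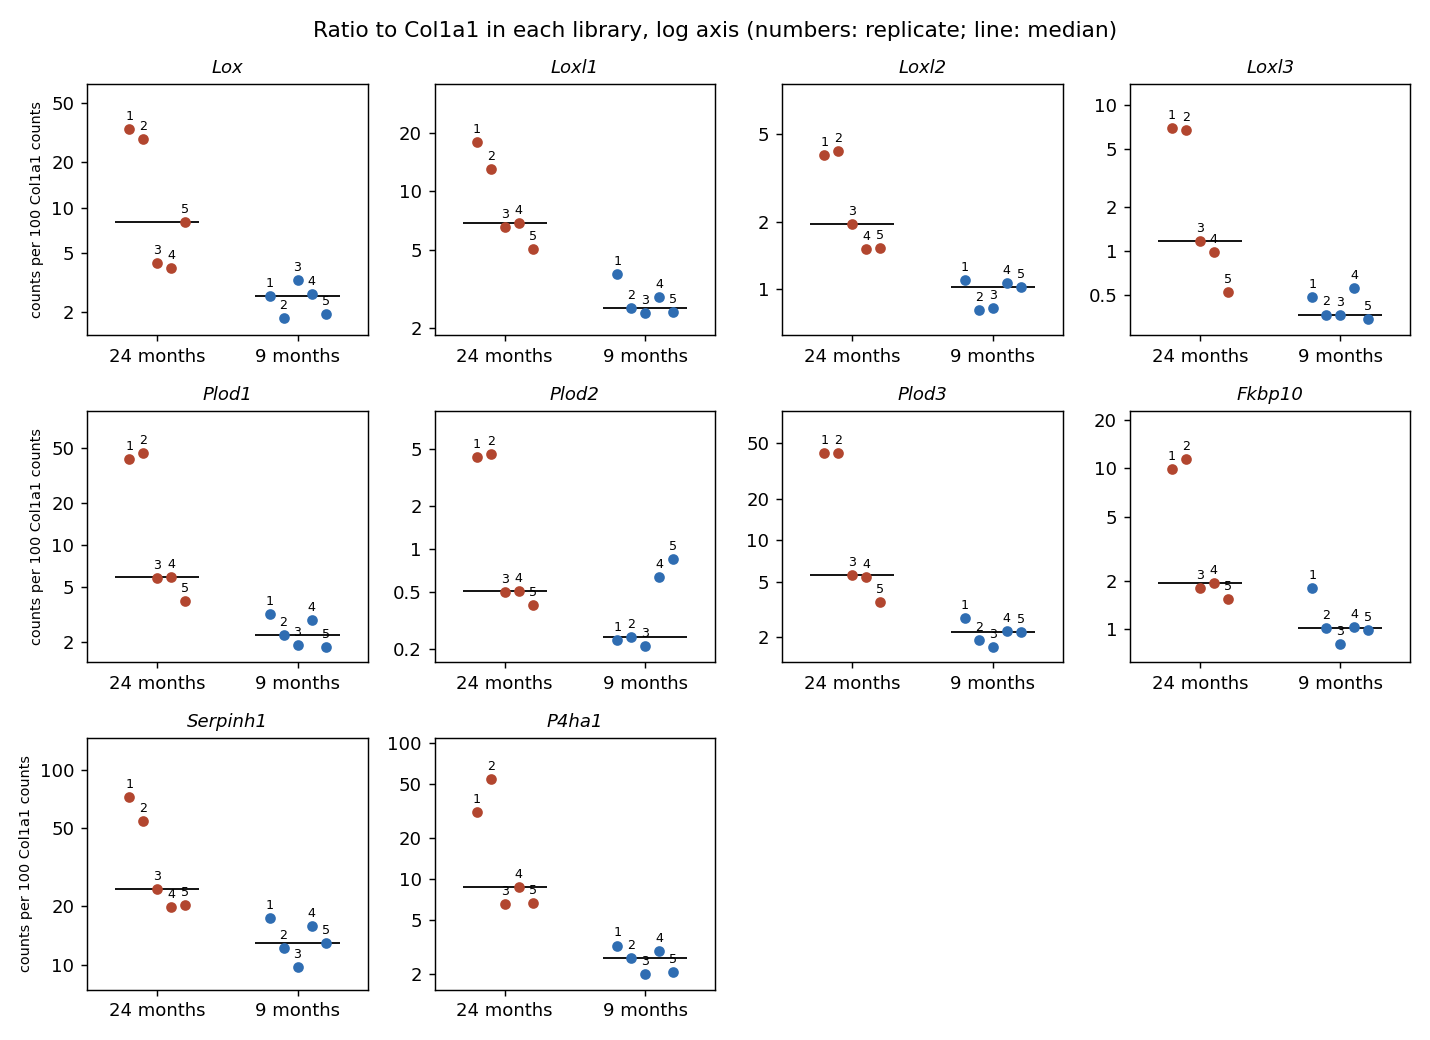
Counts of each gene per 100 counts of Col1a1 in every library, on a log axis, with the 24 months libraries on the left and the 9 months libraries on the right. Small numbers are replicates and lines are medians of 5 libraries. For all 10 genes the highest ratios are those of 24 months replicates 1 and 2, and the gap to the other libraries is smallest for Loxl1, Loxl2 and Serpinh1.

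Over all 10 libraries, Serpinh1 and Loxl2 had the smallest differences relative to Col1a1. For Serpinh1 the ratio was 72.6, 54.3, 24.4, 19.7 and 20.2 counts per 100 Col1a1 counts at 24 months, against 17.3, 12.2, 9.73, 15.8 and 12.9 at 9 months. For Loxl2 it was 4.03, 4.20, 1.97, 1.51 and 1.52 at 24 months, against 1.10, 0.805, 0.824, 1.06 and 1.02 at 9 months. The ages did not overlap for either ratio, as for 7 of the 10 members and 64.9% of all genes tested in this direction. edgeR called neither relative to Col1a1, with log2 fold changes of 1.49 ± 0.90 for Serpinh1 and 1.46 ± 0.93 for Loxl2 (SE; adjusted p = 0.0978 and 0.118). A two-sided exact permutation test of the log2 ratios called both (adjusted p = 0.0122), as it did 15984 of the 17668 genes tested, with p = 0.00794, the smallest that 5 against 5 libraries can give. Their differences in mean log2 ratio exceeded those of 1.99% and 2.05% of all genes tested.

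The other members had larger differences over all 10 libraries. Loxl1 was at 17.9, 13.0, 6.60, 6.89 and 5.06 counts per 100 Col1a1 counts at 24 months, against 3.77, 2.52, 2.37, 2.88 and 2.395 at 9 months, and its log2 fold change relative to Col1a1 was 1.82 ± 0.92 (SE; edgeR adjusted p = 0.0483). Fkbp10, Plod2 and Loxl3 were the 3 members whose ratios overlapped. Fkbp10 was at 9.97, 11.4, 1.81, 1.93 and 1.54 counts per 100 Col1a1 counts at 24 months, against 1.80, 1.02, 0.805, 1.03 and 0.983 at 9 months. Plod2 was at 4.34, 4.59, 0.502, 0.508 and 0.403 at 24 months, against 0.231, 0.242, 0.209, 0.636 and 0.846 at 9 months, with the 2 growing-hair libraries above 3 of the older mice. Without 24 months replicates 1 and 2, the log2 fold change of Plod2 relative to Col1a1 was 0.12 (edgeR adjusted p = 0.804).

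At the other end, P4ha1 was at 30.7, 54.1, 6.49, 8.62 and 6.65 counts per 100 Col1a1 counts at 24 months, against 3.22, 2.61, 1.98, 2.92 and 2.04 at 9 months. Its difference in mean log2 ratio was 2.52 and exceeded that of 60.5% of all genes tested. Plod3's was 2.44 and exceeded 48.2%, and Plod1's was 2.36 and exceeded 36.2%. P4ha1, Plod1 and Plod3 were thus near the middle of all genes on this measure. Lox exceeded 14.5% of all genes and Loxl3 21.99%.

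These ratios rest heavily on 24 months replicates 1 and 2, where Col1a1 had 3551 and 4121 counts, against 37572 to 135887 in the others. Without them, the median log2 fold change relative to Col1a1 was 1.09 over the 10 genes and 1.07 over all genes tested. It was 0.66 for Serpinh1, 0.79 for Loxl2, 0.64 for Fkbp10, 0.12 for Plod2 and 1.504 for P4ha1, so that Plod2 and Fkbp10 then had smaller differences than Serpinh1 and Loxl2.

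**Figure D3:**
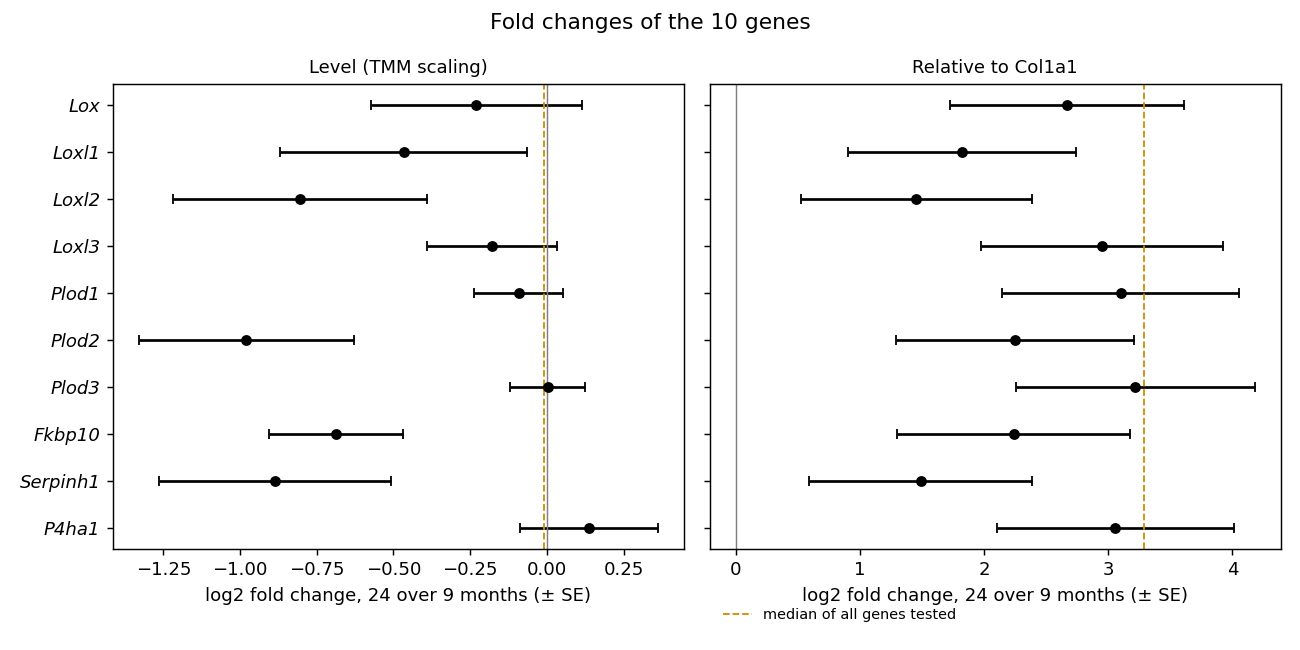
Log2 fold changes of the 10 genes for 24 over 9 months, with SE, on the CPM scale (left panel) and relative to Col1a1 (right panel). The dashed line is the median of all genes tested, -0.011 in the left panel and 3.29 in the right, and Loxl2 and Serpinh1 lie furthest below it in the right panel.

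The distance of a pattern from Col1a1 was also measured over all 10 libraries, as the SD of the log2 difference. It was 0.87 for Loxl2, 0.93 for Serpinh1 and 1.04 for Loxl1, and only 8, 13 and 45 of the genes tested lay closer to Col1a1. It was 0.22 for Col1a2, the partner chain of type I collagen, and a median of 1.83 over all genes. Fkbp10 followed at 1.355 with 267 genes closer, and Lox at 1.51 with 785. 24 months replicates 1 and 2, picked for the lowest Col1a1, both lay below the other 8 libraries for 5 of the 10 members. These were Lox, Loxl1, Loxl2, Fkbp10 and Serpinh1, against 5.98% of all genes tested. Because of that choice, genes with patterns near Col1a1 tend to meet this rule. Without those libraries the distance was 0.44 for Serpinh1, 0.46 for Loxl2 and 0.49 for Fkbp10, with 90, 120 and 230 genes closer, and 0.65 for Loxl1, with 5753 closer. The median over all genes was then 0.70.

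By the same measure, Loxl2 and Serpinh1 were each other's nearest gene, with an SD of the log2 difference of 0.19 over 10 libraries. The second nearest were Creb3l1, a membrane-bound transcription factor of secretory cells, for Loxl2 and Akr1c18 for Serpinh1 (SD of 0.24 and 0.21). Loxl1 was nearest to Lrrc17 and Cd248, which encodes endosialin of stromal cells (0.15 and 0.16), and Fkbp10 to Cavin3, a coat protein of caveolae, and Emid1 (0.14 and 0.17). Lox was nearest to Prox1, a transcription factor of lymphatic vessels, and Aspn, a small matrix proteoglycan (0.26 and 0.27). Aspn was highest in the same 2 libraries as Lox, at 72.1 CPM in 24 months replicate 5 and 66.5 CPM in 9 months replicate 3. Plod2 was nearest to E2f3, a cell cycle transcription factor, and Kalrn (0.18 and 0.19). E2f3 measured 31.1 and 47.0 CPM in replicates 4 and 5 at 9 months and 20.2 CPM in replicate 3. In the older mice it measured 12.9 to 19.0 CPM. The nearest genes were picked by their pattern in these same libraries, so high libraries shared with a member follow from the choice. Loxl3 was nearest to Slc26a6 and Slc13a3, Plod1 to Afap1l1 and Plekhb2, Plod3 to Arap1 and Scamp2, and P4ha1 to Inka2 and Slc12a5, with SDs between 0.060 and 0.18.

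Other genes of the pathway were taken from lists of genes by function. All 5 fibrillar collagen genes listed were lower at 24 months at an unadjusted p under 0.05, against 6.45% of all genes tested. Their median log2 fold change was -1.52, from -1.75 for Col1a1 to -0.74 for Col5a2 (edgeR adjusted p of at least 0.254). All 5 were lower in 24 months replicates 1 and 2 than in any other library, against 5.98% of all genes tested. These 2 libraries were picked for the lowest Col1a1, so Col1a1 met this by the choice. Genes with patterns near Col1a1 tend to meet it too, so the count is no separate support. Without those 2 libraries, 4 of the 5 were lower at an unadjusted p under 0.05, against 3.62% of all genes tested. The median of the 5 was then -0.91, with Col1a1 at -1.11 and Col5a2 at -0.39 (edgeR adjusted p = 0.384 and 0.594). Over all 10 libraries the collagens had larger differences than any of the 10 enzymes and chaperones except Plod2, Serpinh1 and Loxl2, whose values lay between those of Col5a2 and Col1a1.

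Of 16 tested genes listed for other hydroxylation and folding steps, 3 were lower and 0 higher at an unadjusted p under 0.05. Of all genes tested, 6.45% were lower and 6.62% higher. This list also holds the lysyl oxidase Loxl4 and the matrix protein Sparc, which is among the 3. The median log2 fold change of the 16 was -0.21. P4ha3 did not pass the filter on low counts. The 4 with the smallest p were Sparc, Fkbp14, P3h1 and Colgalt2. Sparc, a collagen-binding protein of the matrix, stood at 709 ± 351 CPM at 24 months and 1739 ± 252 CPM at 9 months (SD, n = 5 each), a log2 fold change of -1.29 ± 0.33 (SE; edgeR adjusted p = 0.163). Fkbp14, another prolyl isomerase, had a log2 fold change of -0.59, P3h1, a prolyl 3-hydroxylase, -0.34, and Colgalt2, a collagen galactosyltransferase, -0.38 (edgeR adjusted p = 0.321, 0.350 and 0.480). Loxl4, the remaining lysyl oxidase, stood at 11.97 ± 9.86 CPM at 24 months and 7.16 ± 2.496 CPM at 9 months, with 28.5 CPM in 24 months replicate 5 (edgeR adjusted p = 0.567). P4hb, the partner subunit of P4ha1, had a log2 fold change of -0.19 (edgeR adjusted p = 0.573).

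**Figure D4:**
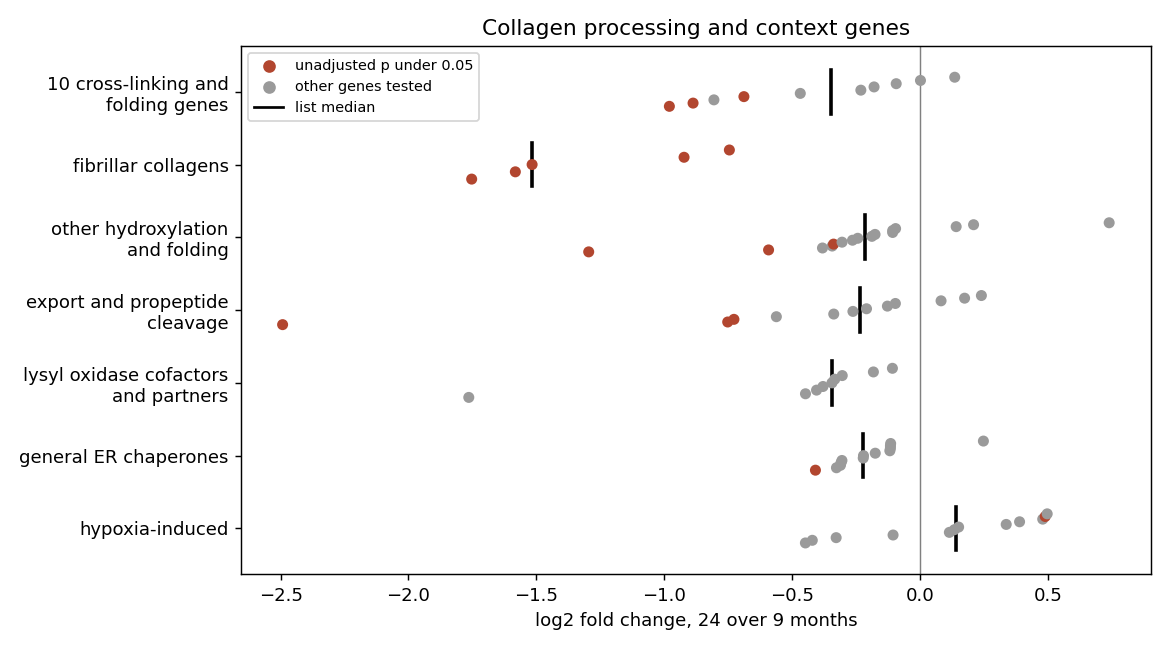
Log2 fold changes for 24 over 9 months of the 10 genes and of the listed genes of the collagen pathway, of general chaperones of the endoplasmic reticulum (ER) and of hypoxia-induced genes. Each point is a gene, red at an unadjusted p under 0.05, and black bars are list medians, from -1.52 for fibrillar collagens to 0.14 for hypoxia-induced genes. All 10 libraries entered.

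For collagen export and propeptide cleavage, 3 of 12 genes were lower and 0 higher at an unadjusted p under 0.05. The shares of all genes tested were 6.45% and 6.62%, and the median log2 fold change of the 12 was -0.23. Adamts3, a procollagen N-proteinase, had a log2 fold change of -2.49 (edgeR adjusted p = 0.225) at 0.0778 to 0.321 CPM at 24 months and 0.0353 to 2.92 CPM at 9 months. Its 2 highest libraries, at 2.05 and 2.92 CPM, were 9 months replicates 4 and 5. Pcolce, an enhancer of C-proteinase, and Adamts2, an N-proteinase, had log2 fold changes of -0.73 and -0.75 (edgeR adjusted p = 0.334 and 0.362). Mia2, a cargo receptor for export, had a log2 fold change of 0.24 (edgeR adjusted p = 0.411).

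Among 9 copper carriers and partners of lysyl oxidase, 0 passed an unadjusted p under 0.05 in edgeR's test, against 13.1% of all genes tested. The median log2 fold change of the 9 was -0.34. The 4 with the smallest p were the copper chaperone Atox1 at -0.40, the copper importer Slc31a1 at -0.38, the proteoglycan Fmod at -1.76 and elastin, Eln, at -0.34 (edgeR adjusted p = 0.455, 0.472, 0.496 and 0.497). Fmod was high in 2 younger mice, with 241.5 CPM in 9 months replicate 3 and 134.8 CPM in replicate 4, against 6.03 to 44.2 CPM in the other 8 libraries.

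General chaperones of the endoplasmic reticulum differed less than Serpinh1 and Fkbp10 in size. Their median log2 fold change was -0.22 over 13 genes, from -0.41 for Pdia6, a disulfide isomerase, to 0.25 for Dnajb9. At an unadjusted p under 0.05, 1 was lower and 0 were higher, against 6.45% and 6.62% of all genes tested. Calr and Pdia3, which fold glycoproteins, and Sdf2l1 had log2 fold changes of -0.31, -0.31 and -0.33 (edgeR adjusted p = 0.399, 0.405 and 0.588). Hypoxia-induced genes, a class to which P4ha1, Plod2 and Lox also belong, had a median of 0.14 over 12 genes. Against the same shares of all genes tested, 0 of these 12 were lower and 1 was higher at an unadjusted p under 0.05. That gene was Vegfa, a vascular growth factor, at 171 ± 24.0 CPM at 24 months and 122 ± 25.8 CPM at 9 months (SD, n = 5 each), a log2 fold change of 0.49 (edgeR adjusted p = 0.229). The glucose carrier Slc2a1, the kinase Pdk1 and the mitophagy gene Bnip3 had log2 fold changes of 0.50, 0.34 and 0.48 (edgeR adjusted p = 0.474, 0.495 and 0.507). Negative values were found for 4 of the 12. Ldha was at -0.45, Pgk1 at -0.42, Aldoa at -0.33 and Car9 at -0.10 (edgeR adjusted p = 0.534, 0.5315, 0.719 and 0.946).

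These list values also depended on the libraries that stood apart. Leaving out 24 months replicates 1 and 2, the median log2 fold change was -0.067 for other hydroxylation and folding genes, -0.037 for export and propeptide cleavage, -0.11 for copper carriers and partners, -0.080 for general chaperones and 0.22 for hypoxia-induced genes. At an unadjusted p under 0.05, Loxl4 was then higher, at a log2 fold change of 1.24 (edgeR adjusted p = 0.488). Sparc and Adamts3 were then lower, at -0.90 and -2.46 (edgeR adjusted p = 0.414 and 0.578). Of all genes tested, 4.96% were higher and 3.62% lower in this setting. Fkbp14, P3h1, Pcolce, Adamts2, Pdia6 and Vegfa no longer passed an unadjusted p under 0.05. Without 9 months replicates 4 and 5, Adamts3 was at -0.78 (edgeR adjusted p = 0.709), and the medians were -0.097 for general chaperones and -0.0010 for hypoxia-induced genes. Of the 12 hypoxia-induced genes, 2 were then lower at an unadjusted p under 0.05, Pgk1 and Ldha, and 1 higher, Vegfa. Outside the collagens, Sparc, Fkbp14, Pcolce and Eln of the pathway lists were also lower at that threshold. Their log2 fold changes were -1.39, -0.67, -0.90 and -0.49 (edgeR adjusted p = 0.514, 0.566, 0.553 and 0.554). The shares of all genes tested were 4.14% lower and 4.65% higher.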

How the data were processed

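RNA was made into libraries with an Illumina multiplex mRNA kit, per the labels. The submitters' processing notes name CASAVA 1.7, STAR 2.4.1d, featureCounts 1.4.6-p4 and GRCm38, without roles. The sources used here do not give the annotation release, strand setting or treatment of multi-mapping reads. The deposited table holds raw read counts per Ensembl gene, not normalised, and the authors' second table was not used here. Symbols, coordinates and exon lengths came from GENCODE vM21 by identifier, and 47224 of 47729 identifiers matched. The most alike libraries had a chi-square per gene of 31.9, above sampling noise.

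Counts were filtered with filterByExpr and TMM-scaled in edgeR 4.0.16 (R 4.3.3). The test was edgeR's quasi-likelihood F test, in its robust form, for 24 over 9 months, without covariates, adjusted over 17668 genes and called at an adjusted p under 0.05. SE were derived from F. A second fit replaced library sizes by Col1a1 counts. DESeq2 1.42.0 and limma 3.58.1 were alternatives, and the fits were tested on simulated data. Distances between patterns used log2 CPM with a prior count of 2. The named genes were the 10 members, the 2 nearest genes of each, and up to 4 genes per list with the smallest p. Loxl4, P4hb, Dnajb9, Ldha, Pgk1, Aldoa and Car9 were added after their values were seen. List values without the libraries that stand apart were added after seeing the data. Members and lists were chosen with earlier results of these data known.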

Additional observations from a re-analysis of the deposited data

Results flagged for a closer look

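In 3 of the 22 groups of 5 libraries examined, 1 library lay far from the others. For normal and independent values, chance gives about 1 in 20 groups. The groups here share libraries and CPM was not put on a log scale, so the 3 are not read as more than chance. Lox stood at 108.4 CPM in 24 months replicate 5, against 32.0 to 50.8 CPM in the other older mice. Lox also stood at 105.6 CPM in 9 months replicate 3, against 46.3 to 57.8 CPM in the other younger mice. Plod1 stood at 43.6 CPM in 9 months replicate 5, the library with the most growing-hair RNA, against 61.1 to 66.8 CPM in the other younger mice. Their causes were not tested.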

How the results depend on the processing

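The replicate numbers only name libraries. No paired analysis was possible because the labels give no number shared between the ages. Over 16 alternatives the log2 fold change stayed negative for Fkbp10 (-0.85 to -0.43), Serpinh1 (-1.13 to -0.40), Plod2 (-1.16 to -0.20), Loxl2 (-1.09 to -0.28) and Loxl3 (-0.37 to -0.032), and positive for P4ha1 (0.026 to 0.41). None of the 10 genes was called under any of these. An unadjusted p under 0.05 held in 15 of 16 for Fkbp10, 13 for Plod2 and 9 for Serpinh1.

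The cause of the following shifts was not tested. The number of genes called was 0 as reported, 1 with no filter on low counts, 1 without 9 months replicates 4 and 5, 3 with limma, 907 with DESeq2 and 0 to 8 leaving out 1 library. The count of members lower at an unadjusted p under 0.05 was 1 without 9 months replicates 4 and 5, against 4.14% of all genes. It was 1 without 24 months replicates 1 and 2, against 3.62%, and 2 to 5 leaving out 1 library. The share of all genes leaving out 1 library is not given here. The count higher was 1 without 24 months replicates 1 and 2, against 4.96% of all genes tested. Plod3 was at -0.015 with no filter, -0.0059 with DESeq2 size factors, -0.010 with DESeq2, -0.058 without 9 months replicates 4 and 5, and -0.094 to 0.038 leaving out 1 library. Without 24 months replicates 1 and 2, Lox was at 0.067, Loxl1 at 0.051 and Plod1 at 0.0075. Leaving out 1 library, Lox ranged from -0.65 to 0.037. The median of all genes was 0.011 without 9 months replicates 4 and 5, and -0.020 to 0.0063 leaving out 1 library.

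Relative to Col1a1, the 10 genes stayed positive over 17 alternatives, including Col1a2, Col3a1 or the sum of 3 collagens as denominator. The count of members higher at an unadjusted p under 0.05 was 8 as reported, 5 without 9 months replicates 4 and 5, 9 without 24 months replicates 1 and 2, 9 by exact permutation, and 5 to 8 leaving out 1 library, with 5 without 24 months replicate 2. The members' median was 1.09 without 24 months replicates 1 and 2, where the median of all genes was 1.07. Loxl2 and Serpinh1 became called there (edgeR adjusted p = 0.0126 and 0.0313) and by exact permutation. Over the 17 alternatives, 14111 to 21961 genes were called higher relative to Col1a1. As reported it was 17128 of 17668 (96.9%), so a call does not set a member apart. Calls were lost in 12 of 17 alternatives for Loxl1, 7 for Plod2, 4 for Fkbp10 and 1 for Lox. The lowest count of any of the 10 genes was 138, and the effect of depth was not tested.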
